A study of Mus musculus with 36 samples.

Results

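The genetic interaction of the Pkd1-RC/RC and Pkhd1-/- mutations at postnatal day 12 (P12) was measured in whole kidneys of C57BL/6 mice. All 12 libraries of that age were used, of 36 in the series, matched to their count columns by the animal number in each sample's label. They comprise 3 wild-type (WT), 3 Pkd1-RC/RC, 3 Pkhd1-/- and 3 digenic kidneys, and the digenic mice carry both homozygous mutations. The labels name no promoter or Cre line that would limit either mutation to a cell type, and they do not say whether mice of 1 group shared a litter. The interaction is the digenic log2 level minus that of each single mutant plus that of WT. It is 0 where the digenic change equals the sum of both single changes on the log2 scale, positive where the digenic kidney lies higher than that sum and negative where it lies lower.

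Pkd1 encodes polycystin-1, a large receptor-like protein of the primary cilium, and its mutation causes dominant polycystic kidney disease. RC is a point allele that leaves reduced function. Pkhd1 encodes fibrocystin, another membrane protein of the cilium, and its loss causes recessive polycystic kidney disease. In cystic kidneys, dilated tubules lie among injured epithelium, inflammatory cells and matrix.

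Total counts were 53152909 to 80789299 per library. In 2 libraries the column header and the label differ (digenic replicate 1 has P3, and Pkd1-RC/RC replicate 2 has Pkhd1, in the header), and the labels were used. For both groups, the mean column of the authors' deposited table equalled the mean over the labelled libraries within 1 count in 18049 of 18049 genes. The sexes were 2 males and 1 female in WT and digenic, 3 males in Pkd1-RC/RC, and 1 male and 2 females in Pkhd1-/-. The male shares of the 4 groups cancel in the interaction. The first principal component (44.4% of variance) placed the digenic libraries at 74.3, 35.4 and 61.3 and the others between -24.8 and -11.7. Adrenal transcripts (summed level of 10 genes) stood at 235.6 CPM (read counts scaled to library size by TMM) in Pkhd1-/- replicate 3 and at 157.5 and 214.4 CPM in digenic replicates 2 and 3, against 5.10 to 11 CPM in the other libraries.

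The targeted transcript followed the labels. Pkhd1 (chr1:20057779-20618064, mm10) held 246, 176 and 222 CPM in WT kidneys, and Pkd1-RC/RC kidneys held 224, 229.7 and 214 CPM. In Pkhd1-/- kidneys it stood at 19.5, 18.9 and 20.1 CPM and in digenic kidneys at 32.3, 20.4 and 18.6 CPM. The groups with and without the knockout did not overlap, and its interaction was 0.24 ± 0.248 (adjusted p = 0.597). Pkd1 carries a point change, so its level checks nothing. Its group means were 87.4, 87.3, 85.6 and 79.04 CPM in WT, Pkd1-RC/RC, Pkhd1-/- and digenic kidneys, with an interaction of -0.11 ± 0.183 (adjusted p = 0.753). Pkd2, which encodes the channel partner of polycystin-1, had an interaction of -0.30 ± 0.111 (adjusted p = 0.109).

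Of 18002 genes tested, 1542 (8.57%) departed from the sum of both single effects (edgeR quasi-likelihood F test, p adjusted by Benjamini-Hochberg over all genes). The digenic level was higher than the sum for 968 genes (5.38%) and lower for 574 (3.19%). For each single mutation alone, 48 (0.267%) passed between Pkd1-RC/RC and WT and 6 (0.0333%) between Pkhd1-/- and WT, while 4141 (23.0%) passed between digenic and WT. These comparisons share the WT libraries. Among the genes higher than the sum, the median effect against WT was -0.01 in Pkd1-RC/RC, -0.14 in Pkhd1-/- and 0.68 in digenic kidneys on the log2 scale, and the median interaction was 0.86. Among the genes lower than the sum the 3 median effects were 0.05, 0.12 and -0.60, and the median interaction was -0.77. The Pkhd1-/- effect had the sign opposite to the interaction for 886 (91.5%) of the higher and 473 (82.4%) of the lower genes. The Pkd1-RC/RC effect had the opposite sign for 504 (52.1%) and 338 (58.9%). Both effects are subtracted in the contrast, so these shares are a description of the called genes and no test.

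Most departures were genes in which the digenic kidneys stood apart from every other kidney. All 3 digenic libraries lay above the other 9 for 833 of the 968 higher genes and below them for 481 of the 574 lower genes. Over all 18002 genes, 1973 (11%) lay above and 1684 (9.35%) below. With library totals in place of TMM scaling these counts were 1554 and 2169. The digenic level passed the test against both single mutants in the direction of the interaction for 881 of the 968 higher and 523 of the 574 lower genes. Over all 18002 genes, 1598 (8.88%) passed against both in the higher direction. The contrast shares the digenic and single-mutant libraries with these tests, so the counts describe the called genes and are no separate support. The interaction was at least 2-fold for 424 of the higher and 199 of the lower genes. The departure computed on the linear CPM scale had the same sign for all 968 and all 574.

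**Figure D1:**
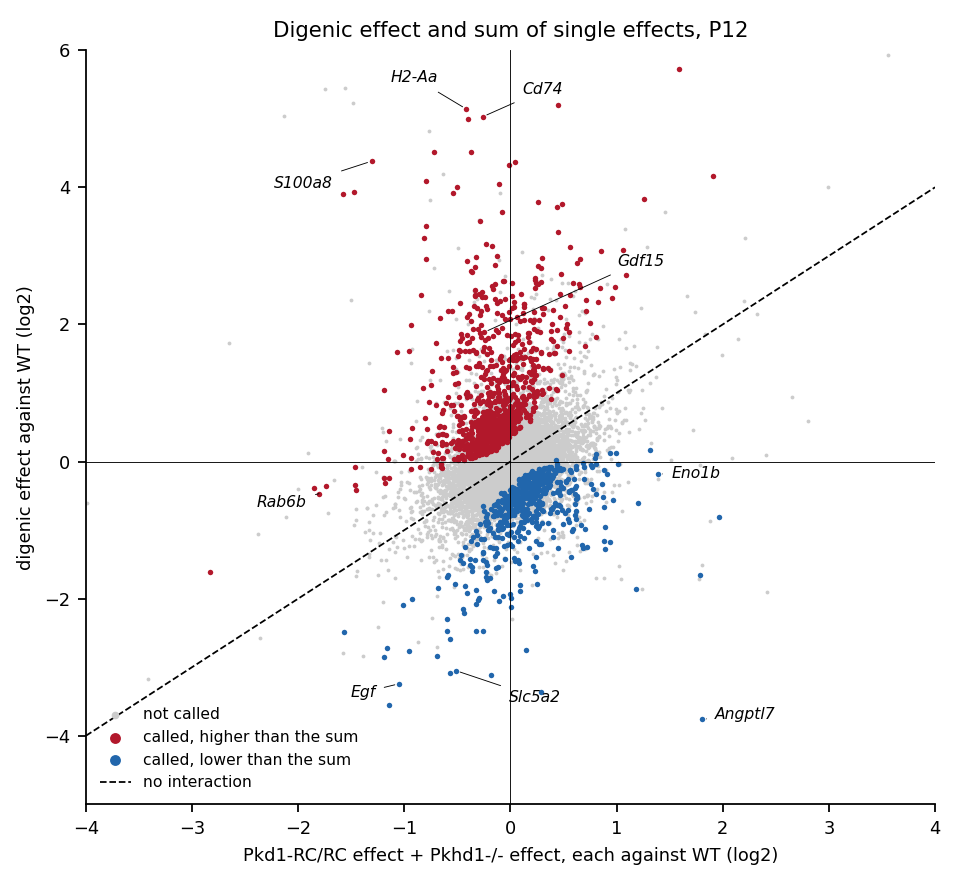
Digenic effect against WT (y axis, log2) plotted against the sum of the Pkd1-RC/RC and Pkhd1-/- effects (x axis, log2) for the 16103 genes whose mean log2 CPM was 0 or more; each point is a gene and the dashed line marks no interaction. Called genes lie above or below the dashed line. The median interaction over all called genes was 0.86 for those higher and -0.77 for those lower than the sum. Angptl7, Eno1b and Rab6b have a summed single effect of more than 1 in size.

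Of the 12 largest positive interactions among named genes whose mean log2 CPM was 0 or more, 5 belonged to antigen presentation by major histocompatibility complex (MHC) class II, a grouping made after the values were seen. Class II molecules display peptides on the surface of macrophages, dendritic cells and B cells, and of other cells exposed to interferon-gamma. H2-Aa, the alpha chain of the class II molecule H2-A, stood at 11.3, 23.1 and 16.4 CPM in WT, 13.7, 16.8 and 15.2 in Pkd1-RC/RC, 14.5, 13.3 and 14.4 in Pkhd1-/- and 979, 91.2 and 716 CPM in digenic replicates 1 to 3. All 3 digenic kidneys were above all others, with replicate 2 far below replicates 1 and 3. Its interaction was 5.55 ± 1.01 (adjusted p = 0.0164). Cd74, the invariant chain that escorts class II molecules, stood at 2591, 269 and 1907 CPM in digenic kidneys against 35.1 to 66.4 CPM in the other 9, with an interaction of 5.29 ± 0.941 (adjusted p = 0.015). The beta chain genes H2-Ab1 and H2-Eb1 had interactions of 4.89 ± 0.913 (adjusted p = 0.0174) and 4.50 ± 0.878 (adjusted p = 0.0201). For H2-DMb2, a chain of the H2-DM molecule that loads peptides, it was 4.34 ± 0.883 (adjusted p = 0.021). Digenic kidneys held 1053, 113 and 806 CPM of H2-Ab1, 569.6, 66.5 and 359 CPM of H2-Eb1 and 94.99, 10.9 and 53.01 CPM of H2-DMb2. Replicate 2 was again the lowest of the 3 in each gene, and still above every single mutant and WT library. The calls of H2-Eb1 and H2-DMb2 were kept in 8 of the 12 fits that left out 1 library each. Mir5107 (5.39) lies within Cd74, and reads of both may not be told apart.

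The promoters of the 3 of these 5 genes that matched an entry are shown because the genes moved together and class II promoters are known to share a conserved Y box, whose core TGATTGG is the reverse of a CCAAT box. The 250 bases before the start of transcription are printed 5′ to 3′ on the gene's own strand, from RefSeq (GRCm38.p6), with the core in capitals. They are H2-Aa at chr17:34287824-34288073 (minus strand), H2-Eb1 at chr17:34305617-34305866 (plus strand) and H2-DMb2 at chr17:34144999-34145248 (plus strand).
H2-Aa: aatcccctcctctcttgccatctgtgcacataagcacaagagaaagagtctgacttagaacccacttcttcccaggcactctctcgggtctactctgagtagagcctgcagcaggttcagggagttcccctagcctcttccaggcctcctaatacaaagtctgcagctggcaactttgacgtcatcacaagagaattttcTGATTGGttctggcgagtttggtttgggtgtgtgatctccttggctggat
H2-Eb1: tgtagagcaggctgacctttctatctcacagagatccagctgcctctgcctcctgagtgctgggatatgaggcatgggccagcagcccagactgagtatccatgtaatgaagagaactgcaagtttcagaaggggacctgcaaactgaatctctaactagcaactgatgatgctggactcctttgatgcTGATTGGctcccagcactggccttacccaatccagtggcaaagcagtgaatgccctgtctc
H2-DMb2: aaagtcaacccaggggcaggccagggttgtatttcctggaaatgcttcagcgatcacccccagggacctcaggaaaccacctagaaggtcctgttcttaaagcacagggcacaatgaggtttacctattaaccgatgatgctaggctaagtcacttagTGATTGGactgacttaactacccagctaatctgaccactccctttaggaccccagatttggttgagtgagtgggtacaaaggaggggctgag
H2-Ab1 and Cd74 are named only. The core began 50, 61 and 92 bases before the start. Searched on both strands, it occurred in 9.2% of the 15141 promoter windows matched to 11870 of the 18002 tested genes (250 bases before to 50 after the start), in 6.26% of windows of genes higher than the sum and in 8.05% of windows of genes lower than it. The core was chosen after the values were seen, and its match is a description of the letters only.

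Other genes among the 12 largest positive interactions act in innate immunity and lymphoid recruitment. S100a8 and S100a9 encode the 2 subunits of calprotectin, a neutrophil protein. S100a8 stood at 26.3, 3.48 and 33.2 CPM in digenic kidneys against 0.457 to 1.77 CPM elsewhere, and its interaction was 5.69 ± 1.08 (adjusted p = 0.0158). For S100a9 the digenic values were 24.6, 4.01 and 40.04 CPM against 0.378 to 2.88, with 5.40 ± 1.18 (adjusted p = 0.0267). Fcgr4, an activating Fc receptor, stood at 30.9, 2.44 and 12.7 CPM against 0.359 to 2.13 (5.47, adjusted p = 0.0336). Here digenic replicate 2 was barely above WT replicate 2. Ccl21a, a ligand of the homing receptor Ccr7 with near-identical gene copies that make its counts uncertain, stood at 81.6, 21.4 and 101 CPM against 1.07 to 4.34 (4.75, adjusted p = 0.0164). Nlrc5, an activator of MHC class I genes, stood at 44.6, 3.32 and 15.8 CPM against 0.786 to 2.13 (4.45, adjusted p = 0.0421). Ifi47, an interferon-inducible GTPase, stood at 205, 14.1 and 53.3 CPM against 2.70 to 9.14 (4.89, adjusted p = 0.0491). Of the 12 fits that left out 1 library each, Nlrc5 and Ifi47 kept their call in 2 (without digenic replicate 1 or 2), Fcgr4 in 3 (also without WT replicate 1) and S100a9 in 6. S100a8 and Cd74 kept it in all 12, and H2-Aa, H2-Ab1 and Ccl21a lost it only without Pkhd1-/- replicate 2. With limma-voom, S100a8, S100a9, Fcgr4, Ccl21a, Nlrc5, Ifi47, Mir5107 and H2-DMb2 were not called. S100a9, Fcgr4, Nlrc5 and Ifi47 also lost the call with a replicate block and without the 2 libraries whose headers differ. H2-Aa, Cd74, H2-Ab1 and H2-Eb1 kept it in each of these settings.

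**Figure D2:**
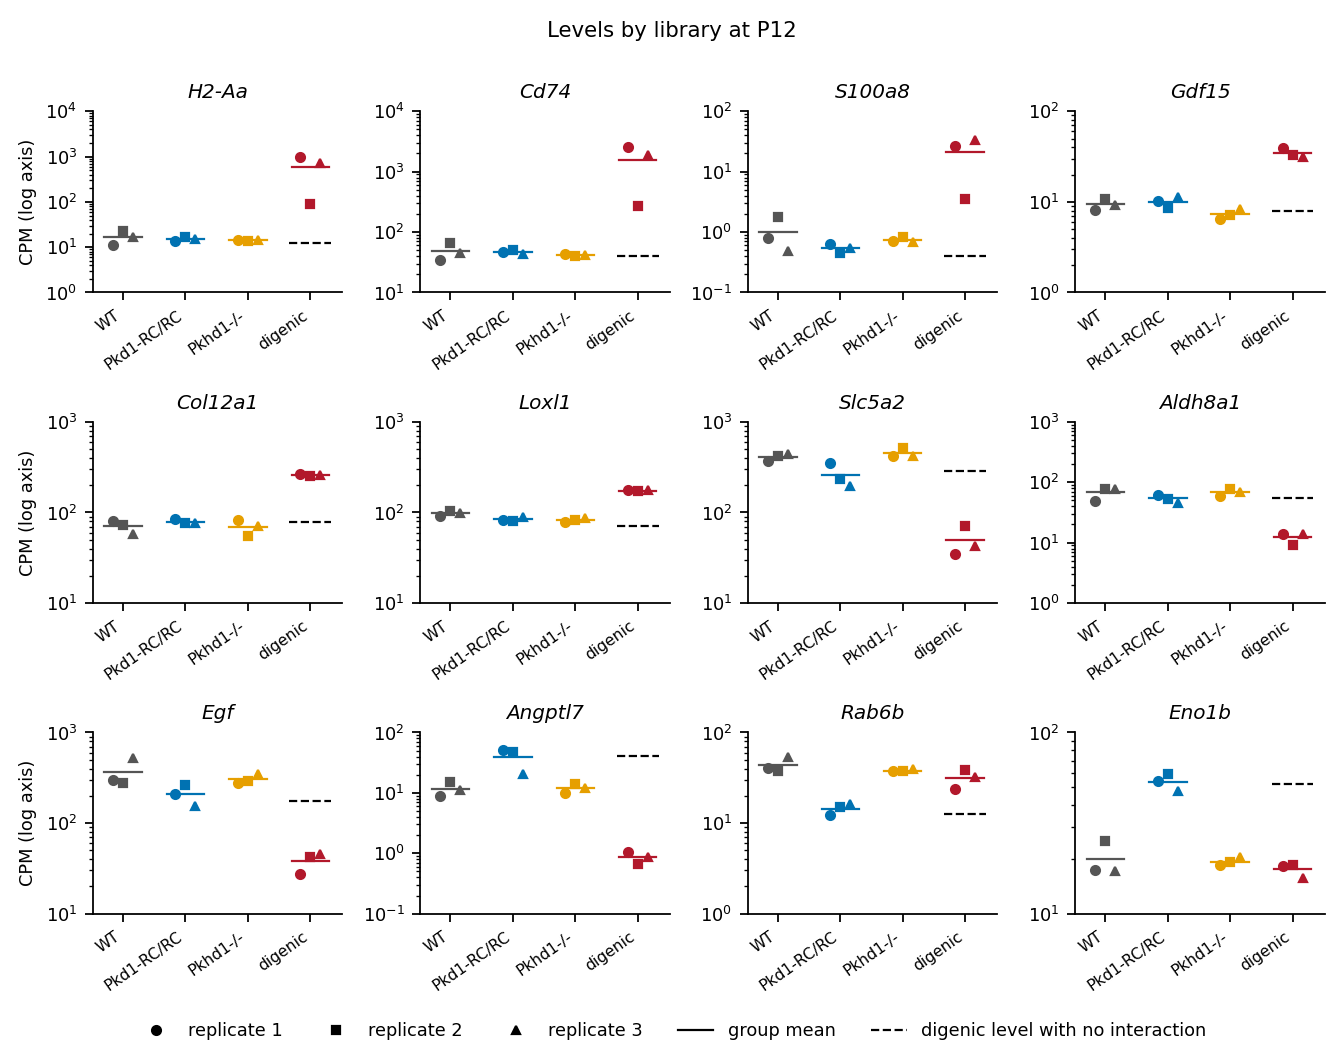
CPM (log axis) of 12 genes in each P12 library by genotype; symbols are replicates, solid bars group means, and dashed bars the digenic level expected from the group means with no interaction. The digenic libraries lie above that level for H2-Aa to Loxl1 and Rab6b, and below it for Slc5a2, Aldh8a1, Egf, Angptl7 and Eno1b.

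In the fit of all 12 libraries, macrophage genes had the largest share of called members among the 39 lists. Of 21 measured members, 18 were higher than the sum and 0 lower, with a median interaction of 2.01 against 0 over all genes. The list shares the 3 C1q genes with the complement list and includes Cd68, a lysosomal glycoprotein, which stood at 20.9, 13.2 and 21.3 CPM in digenic kidneys and 3.94 to 6.47 CPM in the other 9 (1.88 ± 0.270, adjusted p = 0.0036). Cd14, the co-receptor for bacterial lipopolysaccharide, stood at 23.2, 15.2 and 16.5 against 3.94 to 6.80 CPM (1.62 ± 0.228, adjusted p = 0.0035). Tyrobp, a signalling adaptor of myeloid receptors, had an interaction of 2.33 ± 0.386 (adjusted p = 0.00771), and the co-stimulator Cd86 one of 1.92 ± 0.366 (adjusted p = 0.0111). The 3 members that did not pass were Mertk, Gpnmb and Arg1. The list's mean log2 level relative to WT was 2.18, 1.03 and 2.08 in digenic replicates 1 to 3 and -0.11 to 0.30 in the other libraries. Digenic replicate 2 was thus the least raised of the 3, and without it the count of higher members was again 18. That count was 16 without digenic replicate 3 and 13 with limma-voom. In whole-kidney RNA, more cells of a type and more RNA per cell cannot be told apart.

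Neutrophil, complement and lymphocyte genes were called in the higher direction only. Of 9 neutrophil genes measured, 6 were higher than the sum and 0 lower (median 4.11), among them Ltf, which encodes lactoferrin (3.92, adjusted p = 0.0268), and Stfa2l1, of the stefin A cluster, whose members share sequence (5.49, adjusted p = 0.0211). With limma-voom only 1 of the 9 passed. Without digenic replicate 2 all 9 passed, and without replicate 3, 4. Of 19 complement genes 8 were higher and 0 lower (median 1.27). That count was 14 without digenic replicate 2. Without the 3 libraries with adrenal transcripts, which leaves digenic replicate 1 as the only digenic library, the median was 2.29. C1qc, a chain of the initiating C1q complex, stood at 118, 37.9 and 106 CPM in digenic kidneys against 11.8 to 19.3 CPM (2.73 ± 0.521, adjusted p = 0.0158). The anaphylatoxin receptors C5ar1 and C3ar1 had interactions of 2.33 ± 0.400 (adjusted p = 0.00771) and 1.98 ± 0.348 (adjusted p = 0.00876), and the C1 inhibitor Serping1 one of 0.92 ± 0.155 (adjusted p = 0.0076). Of 8 lymphocyte genes 4 were higher, including the B-cell receptor component Cd79b (1.22, adjusted p = 0.0129) and the helper T-cell co-receptor Cd4 (2.45, adjusted p = 0.0167). Ighm, the immunoglobulin mu chain, was also called (1.12, adjusted p = 0.0394), but there the digenic kidneys (12.4, 8.64 and 12.6 CPM) overlapped WT (7.53, 13.2 and 10.7 CPM) and both single mutants lay at 6.83 to 8.23 (Pkhd1-/-) and 5.54 to 8.30 CPM (Pkd1-RC/RC). The T-cell receptor gene Trac (1.92, adjusted p = 0.0435) and Ighm each lost the call in at least 9 of the 12 fits that left out 1 library. The lymphocyte count was 1 with limma-voom and 2 without digenic replicate 1 or 3 or with an adrenal term.

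Chemokines and cytokines recruit and sustain such cells. Of 15 chemokine and cytokine genes 3 were higher than the sum: Csf1, the growth factor of macrophages (76.1, 34.5 and 41.8 CPM against 15.2 to 21.2, 1.72 ± 0.335, adjusted p = 0.0136), Cx3cl1, or fractalkine (1.19 ± 0.159, adjusted p = 0.00296), and Cxcl16 (1.32 ± 0.319, adjusted p = 0.0307). Cx3cl1 held 154 ± 23.9 CPM in digenic and 108 ± 14.0 CPM in WT kidneys (mean ± SD, n = 3 each), with both single mutants lower at 87.1 and 84.5 CPM. Cxcl16 kept its call in 4 of the 12 fits without 1 library. The list's count was 9 without digenic replicate 2, 2 without replicate 3 and 8 of 14 with DESeq2. Its median was 1.09 with all 12 libraries. Without the 3 libraries with adrenal transcripts, with digenic replicate 1 alone in its group, the median was 1.5. Of 19 interferon response genes 3 were higher: Oas1a (2.14, adjusted p = 0.0103), Oasl2 (2.43, adjusted p = 0.0404) and Ifit3 (0.87, adjusted p = 0.0477), whose products act against viral RNA. Digenic replicate 1 stood apart in this list, with a mean log2 level of 1.51 over WT against 0.33 and 0.39 in replicates 2 and 3. Oasl2 stood at 65.9, 21.6 and 20.8 CPM in the 3 digenic kidneys and 5.60 to 13.8 CPM elsewhere. Oasl2 kept its call in 4 and Ifit3 in 3 of the 12 fits without 1 library. The list's count was 5 without digenic replicate 1, 8 without replicate 2, 6 with an adrenal term, 8 of 18 with DESeq2 and 1 with limma-voom. Its median was 1.0 with all 12 libraries. Without the 3 libraries with adrenal transcripts, where digenic replicate 1 is the only digenic library, the median was 1.58.

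**Figure D3:**
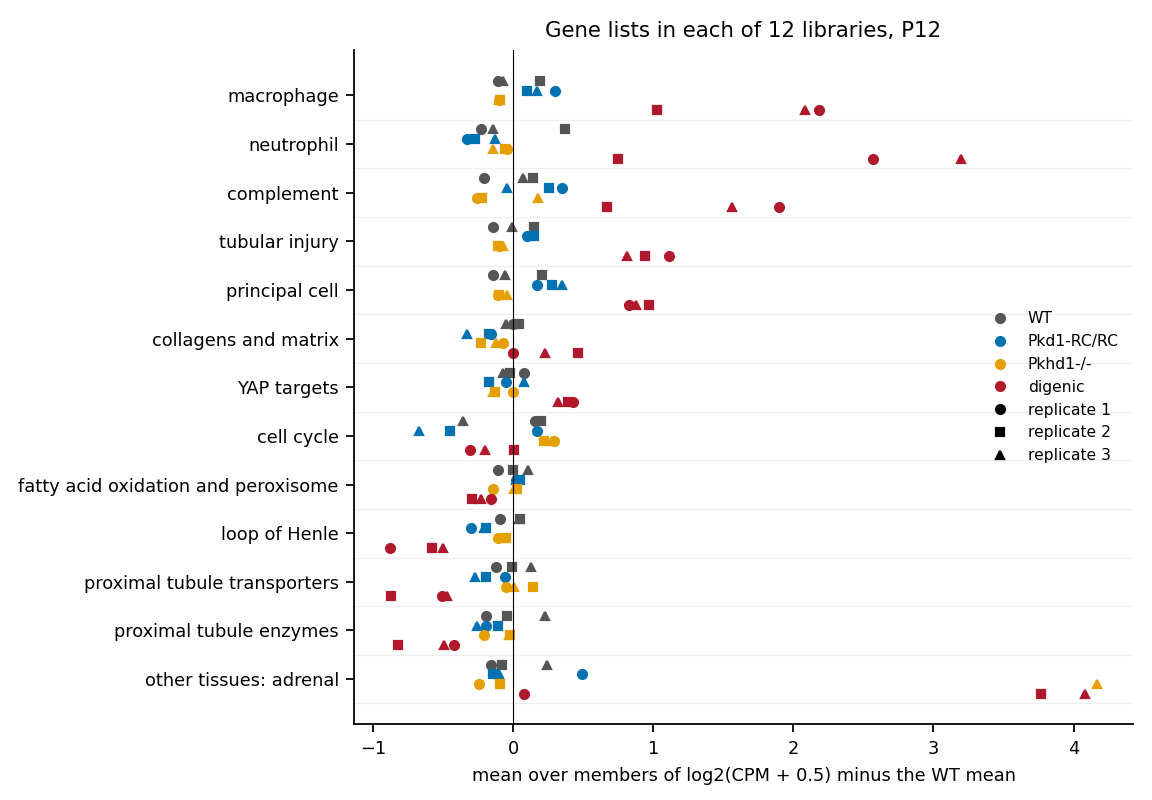
Mean over the measured members of 13 gene lists of log2(CPM + 0.5) minus the WT mean (x axis) in each of the 12 P12 libraries; colours are genotypes and symbols replicates. Macrophage, tubular injury and principal cell lists are higher, and both proximal tubule lists lower, in the 3 digenic libraries than in the other 9, and the adrenal list is high in 3 libraries of 2 genotypes.

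Tubular injury genes were higher in all 3 digenic kidneys by a similar amount. Of 29 measured, 13 were higher than the sum and 0 lower (median 0.90), and the list's mean log2 level over WT was 1.11, 0.94 and 0.81 in digenic replicates 1 to 3. Gdf15, a stress-induced hormone of the TGF-beta superfamily, stood at 8.20, 10.6 and 9.30 CPM in WT, 10.3, 8.63 and 11.3 in Pkd1-RC/RC, 6.44, 7.21 and 8.32 in Pkhd1-/- and 39.6, 33.3 and 31.01 CPM in digenic kidneys. Every digenic kidney was well above all others, and the interaction was 2.13 ± 0.202 (adjusted p = 0.000684). Cd44, a hyaluronan receptor of regenerating epithelium, stood at 24.4, 23.2 and 23.7 against 9.12 to 12.1 CPM (1.15 ± 0.165, adjusted p = 0.0036). The keratin gene Krt18 (1.39 ± 0.211, adjusted p = 0.00553) was higher than the sum too. Sox9, a transcription factor of tubule repair, was low but separate, at 4.66, 5.41 and 5.0 CPM against 1.71 to 2.97 (1.39 ± 0.279, adjusted p = 0.0133). Lcn2 and Havcr1, classic markers of damaged tubules, had interactions of 3.52 ± 0.627 (adjusted p = 0.0141) and 2.26 ± 0.586 (adjusted p = 0.0369). Havcr1 stood at 3.40, 1.08 and 3.34 CPM in Pkd1-RC/RC and 0.793, 0.547 and 0.363 in WT kidneys, and reached 11.7, 11.7 and 7.33 CPM in digenic ones.

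Genes of the collecting duct's principal cells, which take up sodium and water, were also higher than the sum: 6 of 14 measured, 0 lower, median 0.72. Scnn1b and Scnn1g encode the beta and gamma subunits of the epithelial sodium channel. Scnn1b stood at 97.2, 99.3 and 92.4 CPM in WT, 127, 124 and 136 in Pkd1-RC/RC, 79.5, 88.8 and 83.6 in Pkhd1-/- and 180.3, 180.2 and 193 CPM in digenic kidneys. The 4 groups did not overlap, with Pkhd1-/- kidneys lowest, then WT, then Pkd1-RC/RC, and digenic kidneys highest. Its interaction was 0.71 ± 0.0962 (adjusted p = 0.00296), and that of Scnn1g 0.77 ± 0.126 (adjusted p = 0.00733). Gata3, a transcription factor of the duct lineage, stood at 62.4 ± 9.04 CPM in digenic, 34.5 ± 1.80 in WT, 39.2 ± 2.61 in Pkd1-RC/RC and 26.6 ± 0.982 CPM in Pkhd1-/- kidneys (1.04 ± 0.137, adjusted p = 0.00296). The basolateral water channels Aqp4 (1.05, adjusted p = 0.0176) and Aqp3 (1.17, adjusted p = 0.0207) passed. Aqp2, the vasopressin-regulated water channel, did not (1.67, adjusted p = 0.0689), although digenic kidneys held 1377, 1981 and 1852 CPM against 238 to 883 CPM. The Pkd1-RC/RC kidneys held 340.3, 300.3 and 883 CPM, so replicate 3 stood far above the other two. In the distal convoluted tubule list 1 of 12 was higher and 0 lower (median 0.23), near the 5.38% higher over all genes. Without digenic replicate 2 the counts were 4 and 1. The called gene, Trpv5, a calcium channel, stood at 79.7, 36.9 and 48.5 against 16.5 to 25.4 CPM (1.52 ± 0.302, adjusted p = 0.0145).

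Ligands and receptors of the epidermal growth factor (EGF) family were called in both directions. Of 11 measured, 5 were higher than the sum and 2 lower. Egf itself, made by the thick ascending limb and distal tubule, stood at 296, 274 and 521 CPM in WT, 209, 266 and 153 in Pkd1-RC/RC, 276, 291 and 348 in Pkhd1-/- and 27.1, 42.4 and 45.8 CPM in digenic kidneys. The digenic kidneys were far below all others, and the Pkd1-RC/RC kidneys lay below WT without overlap. Its interaction was -2.19 ± 0.404 (adjusted p = 0.0129). Btc (betacellulin) went the other way, from 12.9, 16.2 and 12.2 CPM in WT and 29.7, 19.9 and 21.9 CPM in Pkd1-RC/RC to 78.97, 76.6 and 59.3 CPM in digenic kidneys (1.43 ± 0.225, adjusted p = 0.00595). Hbegf (0.63, adjusted p = 0.0076), Nrg1 (1.47, adjusted p = 0.0174), Tgfa (0.73, adjusted p = 0.0231) and the receptor Egfr (0.66, adjusted p = 0.0145) were higher than the sum, and Nrg4 was lower (-0.48, adjusted p = 0.0393). Egfr stood at 78.7 ± 2.15 CPM in digenic and 53.6 ± 5.70 CPM in WT kidneys. Erbb2, Erbb3, Erbb4 and Errfi1 did not pass.

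Matrix genes were higher than the sum for 11 of 30 measured members and lower for 0 (median 0.51), and without digenic replicate 1 the count was 17. The list's median effect against WT was -0.22 in Pkd1-RC/RC, -0.14 in Pkhd1-/- and 0.04 in digenic kidneys on the log2 scale. All 3 digenic libraries lay above the other 9 for 9 of the 30 genes. Loxl1, an enzyme that crosslinks elastin, had the smallest adjusted p of all genes. It stood at 92.4, 104 and 97.6 CPM in WT, 82.7, 81.5 and 88.4 in Pkd1-RC/RC, 78.8, 82.8 and 86.6 in Pkhd1-/- and 175, 171 and 176 CPM in digenic kidneys. The digenic kidneys lay close together and above all others, while both single mutants lay below WT, and the interaction was 1.29 ± 0.0954 (adjusted p = 0.0001). Col12a1, a collagen that associates with fibrils, stood at 264, 249.7 and 260.3 against 55.5 to 83.9 CPM (1.71 ± 0.195, adjusted p = 0.00172). Lox, which crosslinks collagen, had an interaction of 0.91 ± 0.121 (adjusted p = 0.00296), and the protease inhibitor Timp1 one of 1.61 ± 0.303 (adjusted p = 0.0106). The main fibrillar collagens did not pass: Col1a1 had 0.90 ± 0.295 (adjusted p = 0.0777) and Col3a1 0.18 ± 0.257 (adjusted p = 0.713). Col1a1 stood at 846, 1768 and 1373 CPM in the digenic kidneys, overlapping WT at 1335, 1416 and 1198 CPM. The other called members of the list included Col6a1, Col6a2, Col18a1, the thrombospondins Thbs1 and Thbs2, and the smooth muscle actin Acta2 (1.0, adjusted p = 0.0192). For Col6a1 and Col6a2 the digenic libraries did not stand apart, and the Pkd1-RC/RC libraries lay below all others. Their effects against WT were -0.495 and -0.651 in Pkd1-RC/RC and 0.05 and 0.032 in digenic kidneys. Tagln, a smooth muscle protein, was the 1 called gene of 14 in the stroma and pericyte list (0.97 ± 0.194, adjusted p = 0.0134), near the 5.38% higher over all genes.

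Lists of proteases and growth factor pathways linked to matrix held further called genes, read against 5.38% of all genes higher than the sum. Of 16 metalloproteinase and plasminogen genes 5 were higher, including Mmp14 (0.49, adjusted p = 0.0265), Adamts1 (0.66, adjusted p = 0.0313) and the plasminogen activator Plau (0.41, adjusted p = 0.04). Plau held 1290 ± 34.4 CPM in digenic and 911 ± 17.3 CPM in WT kidneys and kept its call in 2 of the 12 fits without 1 library. The list's count was 2 without digenic replicate 3 and 3 without the 3 libraries with adrenal transcripts. Of 21 TGF-beta and BMP genes 7 were higher and 0 lower (median 0.36), with the ligands Tgfb3 (0.83, adjusted p = 0.0076) and Bmp6 (0.97, adjusted p = 0.0166) and the receptor Tgfbr2 (0.51, adjusted p = 0.0167) among them, and 4 were higher without digenic replicate 3. Of 18 targets of the mechanosensitive regulator YAP 4 were higher and 0 lower (median 0.44): Ajuba (0.72, adjusted p = 0.00595), the coagulation receptor F3 (1.06, adjusted p = 0.00595), the receptor kinase Axl (0.73, adjusted p = 0.0076) and Ctgf (1.17, adjusted p = 0.0454). F3 stood at 50.1, 41.2 and 35.96 CPM in digenic kidneys against 14.9 to 26.8 CPM. Ctgf stood at 263, 135 and 199.7 CPM, with replicate 2 inside the range of Pkd1-RC/RC, and kept its call in 2 of the 12 fits without 1 library. Of 14 hedgehog genes 2 were higher, the ligand Ihh (1.16, adjusted p = 0.0435) and the co-receptor Gas1 (0.62, adjusted p = 0.0211). Ihh kept its call in 3 and Gas1 in 9 of the 12 fits without 1 library. In the hedgehog list 1 gene was higher with limma-voom, and 1 was higher and 1 lower without digenic replicate 3.

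In the fit of all 12 libraries the proximal tubule lists held the most genes lower than the sum. This segment reclaims glucose, phosphate and amino acids and carries out much of the kidney's metabolism. Of 27 transporters 5 were lower than the sum and 0 higher (median -0.48), and of 29 enzymes 8 were lower and 0 higher (median -0.48). Slc5a2, the main glucose transporter of the early proximal tubule (SGLT2), stood at 365, 420.2 and 444 CPM in WT, 352, 232 and 195 in Pkd1-RC/RC, 418, 517 and 422 in Pkhd1-/- and 35.1, 70.3 and 43.1 CPM in digenic kidneys. Its interaction was -2.54 ± 0.367 (adjusted p = 0.00568). The phosphate transporters Slc34a3 (5.42, 8.32 and 8.11 CPM against 15.8 to 41.2, -1.70, adjusted p = 0.0125) and Slc34a1 (1186, 1413 and 1434 against 2140 to 3019 CPM, -0.77, adjusted p = 0.0147) were lower too, as were Slc16a9 (-0.65, adjusted p = 0.0276) and the urate transporter Slc22a12 (-0.78, adjusted p = 0.0428). The endocytic receptor Lrp2 (megalin) did not pass (-0.12, adjusted p = 0.801), and its digenic values of 624, 832 and 884 CPM overlapped those of Pkhd1-/- kidneys.

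Among enzymes, Gatm stood at 471, 316 and 301 CPM in digenic kidneys against 609 to 951 CPM in the other 9. Gatm makes the precursor of creatine (-1.24 ± 0.224, adjusted p = 0.00975), Ass1 the precursor of arginine (-1.10 ± 0.224, adjusted p = 0.0136) and Miox breaks down inositol (-1.06 ± 0.229, adjusted p = 0.0173). Miox stood at 656, 1040 and 831 CPM in WT, 644, 485 and 467 in Pkd1-RC/RC and 256, 282 and 269 CPM in digenic kidneys, so the single Pkd1-RC/RC effect pointed the same way. Its call was lost without Pkhd1-/- replicate 2. Digenic replicate 2, the least raised for immune genes, was the most lowered here: the transporter list's mean log2 level relative to WT was -0.51, -0.87 and -0.47 in digenic replicates 1 to 3. Without replicate 2, 4 transporters were lower and 1 higher, and 6 enzymes lower and 3 higher. Of the 24 nephron transcription factors, Hnf4a (-0.36, adjusted p = 0.245) did not pass, while Gata3 and Sox9 were higher and Esrra, a regulator of mitochondrial genes, was lower (-0.47, adjusted p = 0.04). Esrra kept its call in 4 of the 12 fits without 1 library. Over all genes 5.38% were higher and 3.19% lower than the sum.

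Metabolic and other tubule lists also held genes lower than the sum, read against 3.19% of all genes. Of 26 genes of fatty acid oxidation and peroxisomes 4 were lower and 0 higher (median -0.22): Acsm2 (-0.79, adjusted p = 0.0122), Etfdh (-0.53, adjusted p = 0.0265), Hadh (-0.48, adjusted p = 0.0383) and Etfa (-0.51, adjusted p = 0.0385). Hadh and Etfa kept their call in 2 of the 12 fits without 1 library. DESeq2 called 8 lower in this list, while 2 were lower without digenic replicate 3 and 1 without the 3 libraries with adrenal transcripts. Of 28 oxidative phosphorylation genes only Ndufs1 was called (-0.66, adjusted p = 0.0105). In the loop of Henle list of 15 genes 2 were lower, Egf and Cldn10 (-0.53, adjusted p = 0.0144), and 1 was higher. The count of lower loop genes was 6 with DESeq2 and 4 without digenic replicate 2 or 3. The list's median was -0.42 with all 12 libraries. Without the 3 libraries with adrenal transcripts, with digenic replicate 1 alone in its group, the median was -0.45. Umod (uromodulin) and the salt transporter Slc12a1 missed the threshold at -0.38 ± 0.122 (adjusted p = 0.0706) and -0.59 ± 0.184 (adjusted p = 0.0663). Umod fell in digenic against WT kidneys by 0.78 on the log2 scale (adjusted p = 0.000108), with Pkd1-RC/RC kidneys between them at 1526, 1594 and 1354 CPM against 1839, 1865 and 2009 in WT and 1083, 1150 and 1100 CPM in digenic ones. Single calls, all lower, came from the intercalated cell, podocyte and endothelium lists, each of 15 measured genes. They were Rhbg, an ammonia transporter (-0.69, adjusted p = 0.0196), Col4a3, a glomerular basement membrane collagen also made in tubules (-0.88, adjusted p = 0.0101), and Egfl7 (-0.64, adjusted p = 0.0204).

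Among the other genes with the largest negative interactions, Cpne4, a copine, stood at 0.277, 0.581 and 0.388 CPM in digenic kidneys against 2.18 to 3.76 CPM (-2.90 ± 0.388, adjusted p = 0.00296), and Aspg, an asparaginase, at 0.450, 0.693 and 0.809 against 3.02 to 7.58 CPM (-2.92 ± 0.475, adjusted p = 0.00745). Aldh8a1, an aldehyde dehydrogenase of tryptophan breakdown, stood at 13.9, 9.26 and 13.8 against 46.2 to 78.0 CPM (-2.15 ± 0.284, adjusted p = 0.0035). Ryr2, a calcium release channel, had -2.12 ± 0.370 (adjusted p = 0.00829) and Hhatl -2.15 ± 0.358 (adjusted p = 0.00754). Klk1b5 (-2.41, adjusted p = 0.0279) belongs to a kallikrein cluster of near-identical copies, so its counts are uncertain. Snhg11 (-3.65, adjusted p = 0.0429), Rgs11 (-3.44, adjusted p = 0.0457) and Lgals4 (-3.04, adjusted p = 0.0262) varied within the control groups. Rgs11 stood at 3.12, 1.16 and 5.20 CPM in WT and 9.58, 1.57 and 10.3 CPM in Pkd1-RC/RC kidneys, where replicate 2 was low in both, and its call was lost in 10 of the 12 fits without 1 library. Snhg11 lost it in 9 and Lgals4 in 6.

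Angptl7, a secreted angiopoietin-like protein, had the most negative interaction of the called genes. It stood at 8.76, 15.01 and 11.3 CPM in WT, 50.7, 46.8 and 20.2 in Pkd1-RC/RC, 9.95, 14.2 and 12.2 in Pkhd1-/- and 1.06, 0.656 and 0.858 CPM in digenic kidneys. The Pkd1-RC/RC kidneys were all above the other 9 and the digenic kidneys all below, giving -5.56 ± 0.495 (adjusted p = 0.000684). The Pkd1-RC/RC effect alone was 1.75 ± 0.318 (adjusted p = 0.0599) and the digenic effect -3.76 ± 0.378 (adjusted p = 0.000115). Atp10d, a lipid flippase gene chosen after its values were seen and annotated as a polymorphic pseudogene, showed the same order, at 6.27, 3.86 and 7.54 CPM in WT, 18.4, 26.7 and 16.9 in Pkd1-RC/RC and 3.22, 3.77 and 3.08 CPM in digenic kidneys (-2.78 ± 0.325, adjusted p = 0.00172).

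A smaller set was marked by the Pkd1-RC/RC kidneys. For 60 called genes (0.333% of all tested) the 3 Pkd1-RC/RC libraries lay outside the range of the other 9. In 17 of them, Angptl7 and Atp10d included, the digenic libraries lay outside too, and in the other 43 they overlapped. The share of all genes, called or not, with Pkd1-RC/RC apart was not counted. The contrast subtracts the Pkd1-RC/RC level, so the set is a description of called genes and no test. The following genes were chosen after their values were seen. Eno1b, an enolase copy that may share reads with Eno1, was high in Pkd1-RC/RC kidneys (53.7, 59.2 and 47.7 CPM) and 18.4, 18.6 and 15.7 CPM in digenic ones, near WT at 17.5, 25.1 and 17.2 (-1.57 ± 0.195, adjusted p = 0.00231). Padi2, which converts arginine to citrulline, showed the same pattern (12.5, 16.7 and 15.0 CPM in Pkd1-RC/RC, 5.42, 6.99 and 7.87 in digenic and 6.06, 6.71 and 5.37 in WT kidneys, -1.15 ± 0.239, adjusted p = 0.0147). Rab6b, a small GTPase of vesicle traffic, was low in Pkd1-RC/RC kidneys (12.2, 14.9 and 16.4 CPM) and 23.9, 38.2 and 32.6 CPM in digenic ones (1.33 ± 0.239, adjusted p = 0.00975).

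Part of this set lay together on the genome. Of 102 tested genes starting on chromosome 4 between 140 and 149 Mb (mm10), 21 were called (20.6%). In 12 of these called genes (11.8% of the 102) the Pkd1-RC/RC libraries stood apart, Padi2 and Angptl7 among them. The window was chosen after the positions were seen. By the labels the Pkd1-RC/RC and digenic mice share the Pkd1 genotype. Within 20 Mb of Pkd1 (chromosome 17) 62 of 536 genes were called (11.6%), and within 20 Mb of Pkhd1 (chromosome 1) 14 of 180 (7.78%), against 8.57% over all genes. The window around Pkd1 also holds the called class II genes H2-Aa, H2-Eb1 and H2-DMb2, and its share without the MHC genes was not counted. Rps2, a ribosomal protein gene near Pkd1 with many processed copies, was low in Pkd1-RC/RC kidneys (195, 197 and 205 CPM against 284, 284 and 289 in digenic and 282, 344 and 287 in WT kidneys, 0.55 ± 0.124, adjusted p = 0.0192). The opposite case was the pseudogene Gm5900, at 6.12, 7.97 and 7.65 CPM in WT and 2.50 to 2.85, 2.65 to 2.87 and 2.19 to 2.48 CPM in the 3 mutants: it fell in each single mutant (adjusted p = 0.000713 and 0.00149), and its interaction was positive (1.23 ± 0.204, adjusted p = 0.00754) although the digenic kidneys were lowest. It was the only gene called higher whose 3 digenic libraries lay below the other 9.

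Of 26 cilium genes 3 were lower, Ift80 (-0.52, adjusted p = 0.027), Cep290 (-0.91, adjusted p = 0.0326) and Dync2h1 (-0.53, adjusted p = 0.0439), which serve transport within the cilium and its base. Cep290 kept its call in 4 and Dync2h1 in 2 of the 12 fits without 1 library, and 1 cilium gene was lower without digenic replicate 3. Of 24 cystic disease genes 2 were higher, the transcription factor Glis3 (118, 131 and 119.9 CPM against 72.1 to 87.5, 0.66 ± 0.109, adjusted p = 0.00754) and the mucin Muc1 (139.8, 164 and 140 against 55.1 to 87.9 CPM, 0.98 ± 0.180, adjusted p = 0.00975). Of 30 cell cycle genes 0 were called by edgeR (median -0.14), 1 had an unadjusted p under 0.05, and DESeq2 called 1. The proliferation marker Mki67 had an interaction of -0.30 ± 0.325 (adjusted p = 0.612), with 66.6, 93.3 and 73.3 CPM in digenic and 120.5, 126 and 87.6 CPM in WT kidneys. Of 19 Wnt genes 0 were called (2 before adjustment, 1 by DESeq2), although 3 were higher without digenic replicate 1. The Wnt median was 0.12 with all 12 libraries. Without the 3 libraries with adrenal transcripts, with digenic replicate 1 alone in its group, the Wnt median was -0.35. Of 18 glycolysis genes 0 were called (7 before adjustment, 1 by DESeq2). In the cAMP and vasopressin list of 22, the prostaglandin receptor Ptger4 was higher (0.62, adjusted p = 0.0198) and the phosphodiesterase Pde4c lower (-0.63, adjusted p = 0.0402), the latter kept in 3 of the 12 fits without 1 library. In the NRF2 list of 17, Hmox1 (0.77, adjusted p = 0.04) and Cbr3 (1.14, adjusted p = 0.0494) were higher. Hmox1 kept its call in 4 and Cbr3 in 3 of the 12 fits without 1 library, and 0 genes of the list were called without digenic replicate 3 or without the 3 libraries with adrenal transcripts. Hmgcs1 was the 1 called gene of 21 in cholesterol synthesis (-0.53, adjusted p = 0.0178). Over all genes 8.57% were called, and the shares in the cystic disease, cAMP and cholesterol lists lay near or below that.

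The lists of tissue that could be taken with the kidney gave 0 calls for adrenal, fat, muscle and blood genes by edgeR in the fit of all 12 libraries and by DESeq2, with 1 blood gene at an unadjusted p under 0.05. The adrenal list's transcripts, high in 3 libraries as given above, sit in both terms of the contrast. Without those 3 libraries, with the lone digenic library assumed to vary like the other groups, 1001 genes were higher and 458 lower, and 811 of the 1542 called genes passed in the same direction. With a term for the adrenal level, 861 were higher, 417 lower and 1179 shared. The count of higher members was 18 and 18 for the macrophage list and 17 and 15 for tubular injury. Proximal tubule transporters had 5 and 4 lower, with 1 and 0 higher, and proximal tubule enzymes had 4 and 5 lower, with 4 and 0 higher. Blood genes had 2 lower in each, and fat genes 1 and 0.

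In the promoter windows of called genes, the shares holding 5 further motifs were counted on both strands. The AP-1 site TGANTCA occurred in 8.39% of windows of genes higher than the sum, 3.64% of those lower and 5.42% of all 15141. The TEAD site GGAATG occurred in 16.0%, 11.3% and 12.8%. The interferon-stimulated element, 2 copies of GAAA parted by 2 bases, occurred in 4.92%, 2.3% and 2.96%. The HNF1 site, GTTAAT and ATT parted by 1 base, occurred in 0.224%, 1.34% and 0.31%. The 7 windows of lower genes with the HNF1 site belonged to Ccser2, F13b, G6pc, Gc, Gm15318, Plekha6 and Slc22a29. The HNF4 site, CAAAG followed directly by TCCA, occurred in 0.671%, 0.575% and 0.429%. These shares were not tested.

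The same contrast at the earlier ages called almost nothing. At birth (P0) 1 of 18035 genes passed (0.00554%), DESeq2 called 8, and before adjustment 1067 had p under 0.05. That gene was Ankrd1, a YAP target, at 3.31 ± 0.318, and its interaction at P12 was 0.94 ± 0.435 (adjusted p = 0.193). At P3, 0 of 18043 genes passed (0.0%), DESeq2 called 214, and before adjustment 1457 had p under 0.05. Some list medians at these ages were near or beyond those at P12, and others were smaller. At P0, P3 and P12 the median was -0.11, 1.76 and 1.0 for interferon response genes and -0.47, -0.34 and -0.48 for proximal tubule transporters. It was 0.09, 0.78 and 2.01 for macrophage genes and 0.29, 0.24 and 0.90 for tubular injury genes. These medians were not tested. When all 36 libraries were fitted at once, 13 of 18049 genes passed at P0 (9 higher and 4 lower) and 0 at P3. A direct test of the change, in 1 fit of all 36 libraries, called 128 genes from P0 to P12 (0.709%; 115 higher and 13 lower at P12) and 25 from P3 to P12 (0.139%; 17 and 8). The P12 libraries enter both tests.

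The 5 largest increases from P0 to P12 were those of H2-Aa, Fcgr4, S100a8, Mir5107 and Ccl21a. The interaction of H2-Aa in that fit went from -0.75 ± 0.991 (P0) through 4.42 ± 0.973 (P3) to 5.56 ± 0.961 (P12), and the change from P0 was 6.30 ± 1.36 (adjusted p = 0.0261). For S100a8 the 3 values were -0.18 ± 0.630, 0.71 ± 0.650 and 5.70 ± 0.720, with changes of 5.88 ± 0.950 from P0 and 4.98 ± 0.959 from P3 (adjusted p = 0.00468 and 0.0445). H2-Aa thus had a high value at P3 already, while S100a8 was near 0 at P0 and P3. The P3 value of H2-Aa was not called, as 0 of 18049 genes passed at P3 in that fit. Lcn2 had 0.05 ± 0.420, 0.69 ± 0.420 and 3.53 ± 0.424. Among genes that went down, Slc5a2 went from -0.24 ± 0.345 through -1.04 ± 0.344 to -2.53 ± 0.348, with a change from P0 of -2.29 ± 0.488 (adjusted p = 0.0225). Gdf15 did not pass the test of change from P0, with 3.00 ± 0.453 at P0 and 2.14 ± 0.441 at P12 (adjusted p of the change = 0.654). The counts of change rest on single libraries: without 1 library each these ran from 41 to 257 higher and 3 to 30 lower from P0, and from 0 to 67 and 0 to 62 from P3.

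**Figure D4:**
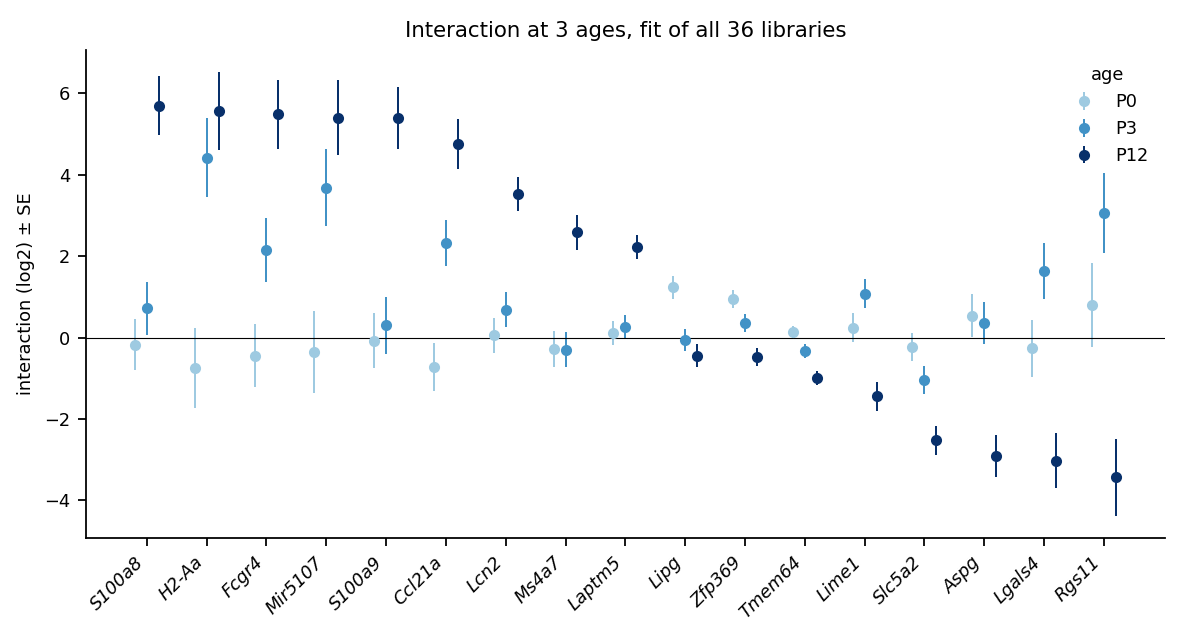
Interaction (log2, y axis) ± SE at P0, P3 and P12 from 1 fit of all 36 libraries for the 17 genes with the largest called changes of the interaction. S100a8, S100a9, Lcn2, Ms4a7 and Laptm5 lie between -0.30 and 0.71 at P0 and P3 and are high at P12, while H2-Aa, Mir5107, Fcgr4 and Ccl21a are above 0 at P3.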

How the data were processed

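RNA from flash-frozen kidneys was sequenced as 150 bp paired-end reads. The submitters' processing notes name TopHat2, Bowtie, featureCounts, edgeR and mm10, and the series' design text MAP-RSeq 2.1.0. The deposited values are raw read counts per gene, per the file headers; the sources used here do not give strandedness, so overlapping genes may share reads. Interaction and mutant effects were fitted with edgeR 4.0.16 (filterByExpr, TMM, robust quasi-likelihood) on the 12 P12 libraries under R 4.3.3, with Benjamini-Hochberg adjustment and a threshold of 0.05. CPM are TMM-scaled, and ± after a log2 value is its standard error. DESeq2 1.42.0, limma-voom 3.58.1 and other scalings, filters and left-out libraries were alternatives. Tested on simulated data of 17988 genes, the fit recovered 59% of 2-fold and 93% of 4-fold interactions. The changes were set only in genes above a minimum mean count, and each gene had the same spread in all groups. These shares therefore do not extend to genes of low count or to groups of unequal spread.

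Members and the 39 lists were chosen with earlier results of these data known. Named genes were Pkd1, Pkhd1 and Pkd2, the 12 largest called interactions in each direction at a mean log2 CPM of at least 0 (no unnamed loci), up to 4 called members per list with the smallest adjusted p, and 5 changes between ages in each direction. Others named were chosen after their values were seen. Lists not described in the report were nephron progenitor (1 of 14 called, Crym, lower) and gut, liver and pancreas (1 of 9, Lgals4, lower). Nothing in the labels says the replicates are separate litters, so p-values measure the spread between these samples. The replicate numbers showed no pairing of the samples. Some genes that the naming rule chose are not reported here.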

Additional observations from a re-analysis of the deposited data

Results flagged for a closer look

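The interaction differed between ages by a direct test in the fit of all 36 libraries: 128 genes passed from P0 to P12 and 25 from P3 to P12. From P0 to P12 the interaction rose by 6.30 for H2-Aa, 5.93 for Fcgr4, 5.88 for S100a8, 5.76 for Mir5107 and 5.49 for Ccl21a on the log2 scale. It went down by -3.46 for Aspg, -2.29 for Slc5a2, -1.68 for Lipg, -1.43 for Zfp369 and -1.12 for Tmem64. For Lipg the interaction was 1.23 ± 0.275 at P0 and -0.44 ± 0.274 at P12, so the change lay in the value at birth. From P3 to P12 it rose by 5.11 for S100a9, 4.98 for S100a8, 2.89 for Ms4a7, 2.84 for Lcn2 and 1.96 for Laptm5. It went down by -6.50 for Rgs11, -4.66 for Lgals4 and -2.52 for Lime1. All the P3 to P12 values have an adjusted p of 0.0445, and for Rgs11 the P3 interaction was 3.06 ± 0.983. Every digenic kidney at P12 enters these values, and no cause was tested.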

How the results depend on the processing

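Of the 1542 genes called in the interaction, 1528 passed in the same direction with RLE scaling, 1512 with DESeq2, 1213 with limma-voom, 711 in 1 fit of all 36 libraries, 1278 with a sex term and 555 to 1382 with 1 library left out. Counts changed more. DESeq2 called 1652 higher and 1087 lower, the 36-library fit 201 lower, a fold threshold of 1.5 (glmTreat) 10 and 7, and a fit without the 2 libraries whose headers differ 877 lower. Leaving out 1 library gave 394 to 1339 higher and 164 to 737 lower, lowest without Pkhd1-/- replicate 2 and highest without digenic replicate 2. For Pkd1-RC/RC against WT, DESeq2 called 73 higher and 91 lower, and leaving out 1 library 12 to 32 and 12 to 38. For Pkhd1-/- against WT, DESeq2 called 2 and 8, limma-voom 0 higher, and leaving out 1 library 0 to 2 and 4 to 6. For digenic against WT the ranges were 1441 to 2412 and 1217 to 1998. DESeq2 called 8 higher at P0, 146 higher and 68 lower at P3, 295 and 60 for the change from P0, and 73 and 76 for that from P3. Leaving out 1 library gave 41 to 257 and 3 to 30 from P0, and 0 to 67 and 0 to 62 from P3. The cause of these differences was not tested. With 1 library left out Pkd1 ran from -0.22 to 0.02 (without Pkd1-RC/RC replicate 3) and Pkhd1 from -0.05 to 0.38. Pkhd1 turned to -0.03 without the 2 libraries whose headers differ, to -0.05 without digenic replicate 1 and to -3.60 CPM on the linear scale; none was called.

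Deviations of same-numbered libraries from their group means correlated at r -0.248 to 0.261 over 18 pairs, 4 above 0.1. Differently numbered libraries gave -0.207 to 0.252 over 36 pairs, 8 above 0.1. The numbers thus showed no pairing, and this check cannot tell whether litters or batches were shared. A replicate block gave 860 higher and 502 lower, 45 and 3 for the change from P0, and 0 and 0 for that from P3. The alternatives on adrenal transcripts, on lists and on the mutant effects were chosen after seeing the data. Of 103 called named genes, 45 kept the call in all 12 fits without 1 library and in all other settings but the fold threshold.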
